A study of Emberiza bruniceps with 4 samples.

Results

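RNA of the hypothalamus was compared between castrated red-headed buntings sampled in spring and castrated red-headed buntings sampled in autumn. The red-headed bunting (Emberiza bruniceps) is a migratory songbird whose gonads grow and regress with the seasons. The 2 groups compared are Spring Castrated and Autumn Castrated, with 1 library each. Spring Intact and Autumn Intact birds, also 1 library each, are given beside them. All birds were caught in the wild, and the labelled tissue of all 4 libraries is hypothalamus. The labels state neither the sex and age of the birds, nor the photoperiod, the time since surgery or the number of birds in a library. With 1 library per group there are no replicates, so the spread between birds cannot be measured and no test between the seasons was made.

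A gene here is the sum of all assembled contigs whose best protein match is the same collared flycatcher protein name. Of 11946 such names, 10560 reached 1 CPM on average across the 4 libraries, and these are described. CPM is a gene's share of the matched estimated counts, scaled to a common total with TMM factors. A gene is called higher or lower when its CPM, with 0.5 added, was at least 2-fold apart, a log2 ratio of 1 in size. All ratios are spring over autumn. Ranges in brackets are exact 95% intervals for the split of the 2 counts, computed without the added CPM, and cover counting error only. The contigs carry no genome positions, so genes are given by protein name, or by the symbol paired by hand with that name.

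In birds, neurons of the hypothalamus release GnRH into the blood vessels that lead to the pituitary. The pituitary gonadotrophs answer with FSH and LH, which drive the gonads. Gonadal steroids feed back on both levels, and inhibin on the pituitary. FSH, LH and the thyroid stimulating hormone TSH share 1 alpha chain, CGA, and each has its own beta chain. Castration removes the gonads, the source of this feedback, and both groups compared here are labelled castrated. Levels of gonadal hormones in these birds are not given.

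The Spring Castrated library held 16840270 estimated counts and the Autumn Castrated library 26213011, of which 6759993 and 10918844 fell on matched contigs, in the same order. The limit that a library's 0 allows, 3 counts, was 0.429 CPM in the spring library and 0.297 CPM in the autumn library. Of the 10560 genes, 266 were higher in spring (2.52%) and 572 were lower (5.42%). These shares over all genes are the background for every count of called list members below. In the intact pair 275 genes were higher in spring (2.6%) and 464 lower (4.39%). In castrated birds 68.3% of calls were lower with TMM, 68.3% with DESeq2's size factors and 66.7% in the authors' TPM. With library totals alone 50% were, with 411 genes higher and 411 lower. Over the alternatives other than library totals the share ran from 60.5% to 71.7%. Library totals moved the median log2 ratio of all genes to 0.157, against 0.003 with TMM. The name neuroligin-3, a synaptic adhesion protein, took 3.57% of matched counts in the spring library and 14.9% in the autumn library. Nearly all of them lay on 1 contig of 7200 bases, which was lower in spring, while the other 3 contigs of this name were higher. Whether the reads of that contig come from the neuroligin-3 gene was not tested. The part of this name in the shift of the median was not tested either. With neuroligin-3 left out of the library totals under TMM scaling, 272 genes were higher and 580 lower.

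Calls were more frequent among genes of low level. Among genes with a mean under 1 CPM in the castrated libraries 18.7% were 2-fold apart, and among genes of 100 CPM or more 2.58% were, with 17 higher and 40 lower. They also depended on the assembly. Many contigs are named as isoforms of the same assembly cluster as a matched contig but have no protein match of their own. With their counts added, an alternative chosen after the data were seen, 164 of the 266 higher genes and 415 of the 572 lower genes were still past 2-fold, and 28 and 50 had the other sign. The plot of all genes shows both kinds of call. A gene said below to hold was past 2-fold in both counts.

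**Figure D1:**
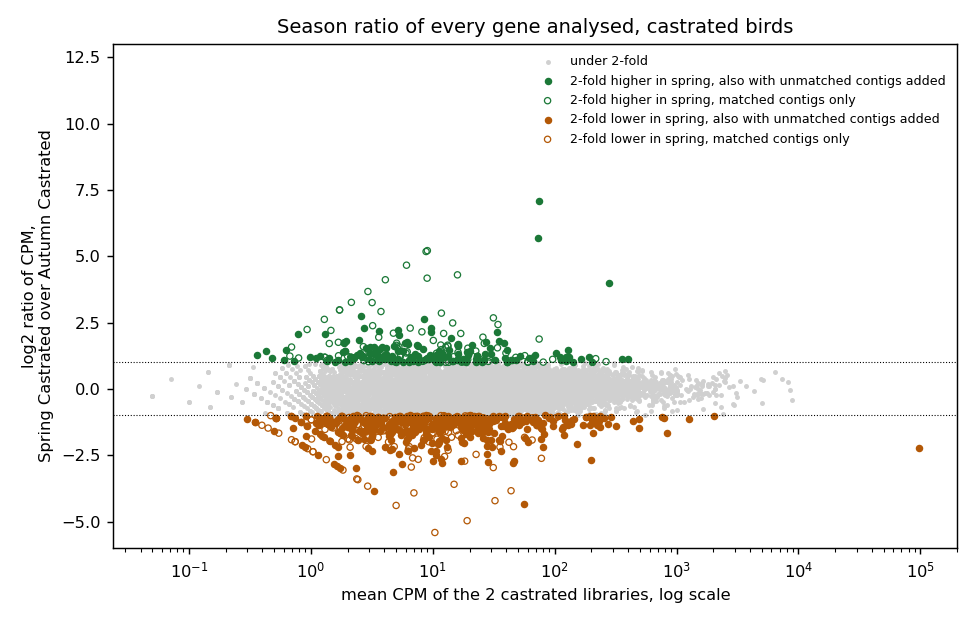
The log2 ratio of CPM, Spring Castrated over Autumn Castrated, of all 10560 genes against their mean CPM in the 2 castrated libraries on a log axis. Filled points mark genes past 2-fold with and without unmatched contigs of the same cluster, hollow points genes past 2-fold on matched contigs only, and the farthest gene on the higher side is FSHB at 7.09.

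The tissue was checked against marker genes. Genes of neurons and glia were abundant in both castrated libraries: the neurofilament gene NEFL stood at 2687 CPM in the spring and 1783 CPM in the autumn library, and the myelin gene MBP at 8356 and 6388 CPM in the same order. Genes that pattern the hypothalamus were sparse. NKX2-1, a defining transcription factor of the ventral hypothalamus, had 16 counts in spring and 13 in autumn castrated birds, against 163 in spring and 132 in autumn intact birds. Transcripts of the hindbrain and of the pituitary, here HOXA2 (404 counts in spring and 418 in autumn) and CGA, were present in both castrated libraries and absent or nearly absent in the intact ones (HOXA2 at 0 counts in spring and 1 in autumn, CGA at 0 and 2). Summed over the list of 15 regional genes of the hypothalamus the level was 177 CPM in spring and 124 CPM in autumn castrated birds, and over 21 genes of the telencephalon 892 and 918 CPM, with list medians of -0.08 and -0.08. Over 19 genes of thalamus, midbrain and hindbrain it was 1844 CPM in spring and 1994 CPM in autumn castrated birds, over 11 genes of the choroid plexus 1811 and 2755 CPM (1004 and 1007 CPM without transthyretin) and over 4 genes of blood cells 33.8 and 41.4 CPM, with list medians of 0.34, -0.06 and 0.03. Of the 19 genes, PVALB alone stood at 961.57 CPM in spring and 1342.5 CPM in autumn. In RNA of a whole piece of tissue, fewer cells of a type and less RNA per cell cannot be told apart.

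The clearest difference between the seasons lay in the pituitary genes. The gonadotroph genes FSHB and CGA were higher in spring, and the genes of growth hormone, POMC and TSH beta were lower, while prolactin and general secretory genes were close in both libraries. Of 18 pituitary genes, 4 were higher and 4 lower, and all 8 held. Their median log2 ratio was 0.05, beside 0.003 over all genes.

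FSHB (follitropin subunit beta), the beta chain that makes FSH, had 1035 counts in the spring library and 6 in the autumn library, or 148 and 0.594 CPM in the same order. Its log2 ratio of 7.09 (6.83 to 9.41) was the farthest from 0 of all 10560 genes, and it was 5.11 in the authors' TPM. CGA (glycoprotein hormones alpha chain) had 3637 counts in spring and 328 in autumn, a log2 ratio of 3.98 (3.84 to 4.17). The LH beta chain was not among the paired names and is not analysed here. A transcription factor of gonadotrophs was also higher in spring. Steroidogenic factor 1 (NR5A1), which gonadotrophs and the ventromedial hypothalamus use, had 113 counts in spring and 33 in autumn (2.15, 1.74 to 2.91). PITX1, a factor of pituitary development, and GATA2, which works in gonadotrophs and thyrotrophs, stayed short of 2-fold with log2 ratios of 0.99 and 0.72. NR5A1 was at 2 counts in spring and 0 in autumn intact birds, and PITX1 at 0 and 0, so that no season ratio of these genes can be read there.

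The hormone genes GH1, POMC and TSHB differed in the opposite direction. Somatotropin (GH1), the growth hormone, had 385 counts in spring and 1872 in autumn, a log2 ratio of -1.74 (-1.91 to -1.59). The receptor through which somatotrophs receive the releasing hormone, GHRHR, had 22 counts in spring and 182 in autumn (-2.34, -3.23 to -1.87). Growth hormone and the receptor for its releaser were thus lower together. POMC, the precursor of ACTH in corticotrophs and of melanocortins in the arcuate nucleus, had 624 counts in spring and 1980 in autumn (-1.13). TSHB, the beta chain of TSH, had 7 counts in spring and 35 in autumn (-1.40, -3.21 to -0.60). TSHB and CGA, whose products pair to form TSH, therefore had ratios of opposite sign. Some of these calls depended on the processing: POMC was at -0.97 with library totals, TSHB at -0.86 with 2 CPM added in place of 0.5, and GH1 at -0.75 in its most abundant contig alone.

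Several genes of the same gland did not reach 2-fold. PRL stood at 68.8 CPM in spring and 81.8 CPM in autumn (-0.25, -0.41 to -0.08). POU1F1, the factor that somatotrophs, lactotrophs and thyrotrophs share, had 51 counts in spring and 62 in autumn (0.23, -0.31 to 0.81), and was at -0.28 with unmatched contigs added. AVPR1B, the vasotocin receptor of corticotrophs, had a log2 ratio of -0.09, and TRHR, a receptor for the thyrotropin releasing hormone, of -0.96. Of genes that neurons express as well, secretogranin-2 (SCG2) was at 0.09, the prohormone convertase PCSK1 at 0.12 and DLK1 at -0.76. The summed level of the 18 genes was 4933 CPM in spring and 4349.6 CPM in autumn. Most of it lay on SCG2 (2792 CPM in spring and 2624 CPM in autumn) and chromogranin-A (CHGA, 991 and 990 CPM). Both were also abundant in intact birds, with SCG2 at 1677 CPM in spring and 1459 CPM in autumn and CHGA at 410 and 424 CPM. The sum is therefore not a measure of pituitary tissue. How much pituitary tissue each library held was not measured, and its part in these ratios was not tested.

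**Figure D2:**
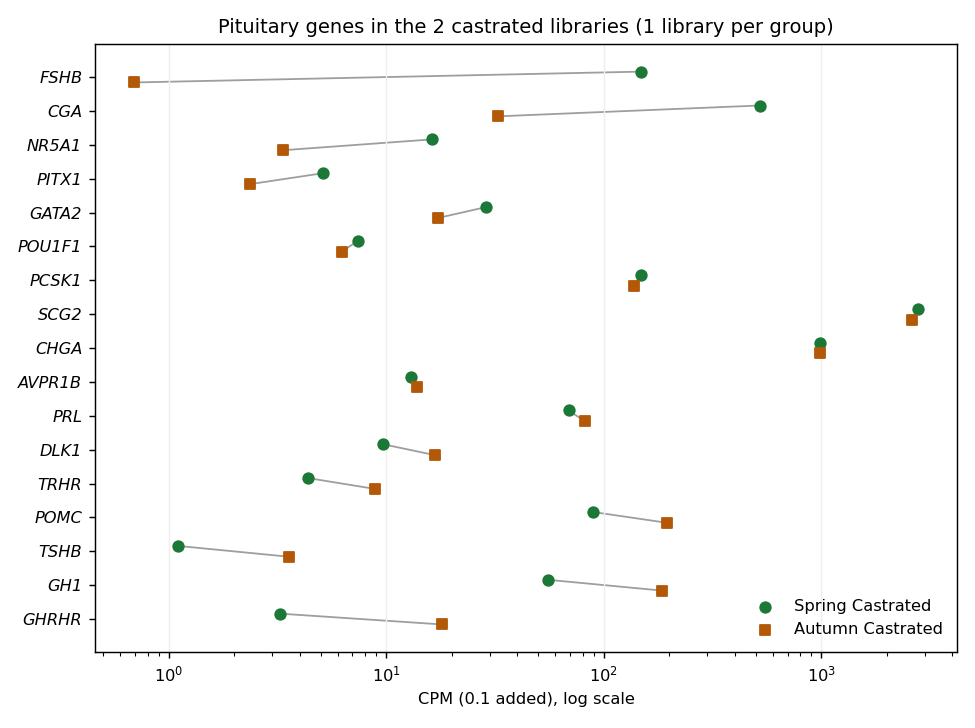
CPM of 17 pituitary genes in the Spring Castrated library (circles) and the Autumn Castrated library (squares), with 0.1 CPM added, on a log axis. FSHB and CGA lie far to the right in spring, GH1, GHRHR, TSHB and POMC lie to the right in autumn, and PRL, POU1F1, SCG2 and CHGA nearly coincide.

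On the hypothalamic side of the gonadal axis the ratios were smaller. The list of the gonadal axis has 20 measured genes, among them the pituitary gene FSHB. With FSHB counted, 3 were higher in spring and 1 lower, beside 2.52% and 5.42% of all genes. Of the 20, 17 lay above 0, and the median was 0.43, beside 0.37 for the intact pair. Besides FSHB the higher genes were GNRH1 and CYP11A1. GNRH1, the precursor of the releasing hormone, had 17 counts in spring and 2 in autumn, a ratio that rests on few reads (2.07, 1.54 to 6.78), against 11 in spring and 42 in autumn intact birds (-1.62). CYP11A1, the enzyme that starts steroid synthesis from cholesterol, had 73 counts in spring and 39 in autumn (1.33, 0.86 to 2.04), against 7 in spring and 81 in autumn intact birds (-2.97). Both genes thus had ratios of opposite sign in castrated and intact birds. The activin receptor ACVR2B was the lower one, with 12 counts in spring and 42 in autumn (-1.07, -2.34 to -0.32). Other parts of the activin system stayed short of 2-fold: the inhibin and activin subunits INHBA and INHBB had log2 ratios of 0.03 and 0.26, and follistatin (FST), which binds activin, of 0.45. The steroid enzymes aromatase (CYP19A1) and 5-alpha-reductase (SRD5A1), which turn androgens into oestradiol and dihydrotestosterone, stood at 0.32 and 0.12. A receptor named gonadotropin-releasing hormone II receptor-like had 256 counts in spring and 351 in autumn (0.07, -0.16 to 0.31). NPFFR1, the receptor for gonadotropin inhibitory hormone, was at 0.52, and the neurokinin B receptor TACR3 at 0.56, but at -0.14 in TPM.

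Genes of photoperiodic thyroid signalling showed no common direction. In birds, long days raise TSH in the pars tuberalis, which raises the deiodinase DIO2 in tanycytes and so the local active thyroid hormone. Of 18 measured genes 1, CGA, was higher and 4 were lower, beside 2.52% and 5.42% of all genes, with a median of -0.05. The lower genes were TSHB, transthyretin (TTR), a thyroid hormone carrier of the choroid plexus (-1.12), and the deep-brain opsins OPN4 and OPN5. OPN4 had 8 counts in spring and 30 in autumn (-1.08, -2.71 to -0.22), and -0.90 with unmatched contigs added, so that its call did not hold. OPN5 had 3 counts in spring and 14 in autumn (-1.02, -4.13 to 0.15). In its most abundant contig alone OPN4 was at 0.33. Both opsins are at the limit of this depth. The choroid plexus list gave 0 higher and 2 lower genes, 5 of 11 above 0 and a median of -0.06. Beside TTR, aquaporin-1 (AQP1) was lower among the 11 choroid plexus genes, with 143 counts in spring and 420 in autumn (-1.31 to -0.75 for the log2 ratio), and ENPP2 and klotho (KL), also of the choroid plexus, stood at 0.10 and 0.23. The part of choroid plexus tissue in the TTR ratio was not tested. The thyroid hormone receptor THRA had 283 counts in spring and 410 in autumn (-0.23 to 0.22 for the log2 ratio), and the TSH receptor TSHR 35 and 52. EYA3, a coactivator that responds to day length, was at -0.20, the transporter SLCO1C1 at -0.07 and TRH, the releasing hormone above TSH, at 0.12. DIO2 stood at 35.6 CPM in spring and 19.1 CPM in autumn castrated birds, short of 2-fold (0.88, 0.62 to 1.18), against 14.2 CPM in spring and 33.1 CPM in autumn intact birds, where it was lower (-1.19).

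The circadian clock genes were close in both libraries. Of 20 measured genes 0 were higher and 1 lower, beside 2.52% and 5.42% of all genes, and the median was -0.03. The lower one, PER3, had 1 count in spring and 9 in autumn (-1.11, -8.09 to 0.21), and with unmatched contigs added 102 and 177 (-0.26). PER2, a repressor of the clock, stood at 48.2 CPM in spring and 36.2 CPM in autumn (0.41, 0.20 to 0.63), its partner CRY2 at -0.42 and the activators CLOCK and ARNTL at -0.51 and -0.06. CRY1 (-0.09 to 0.10), NPAS2 (-0.04 to 0.29) and NR1D1 (-0.30 to 0.56) had log2 intervals that include 0. The melatonin receptor MTNR1A had 25 counts in spring and 57 in autumn (-0.59, -1.40 to 0.04).

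Neuropeptide precursors were more often lower than higher in spring. The hypothalamus makes many such precursors in small groups of neurons that control feeding, water balance, stress and reproduction. Over 30 precursor genes, a family put together after the values had been seen, 2 were higher and 9 lower in spring, beside 2.52% and 5.42% of all genes, and the same number held in each direction. The median log2 ratio was -0.30 in castrated and 0.41 in intact birds, where 8 were higher and 3 lower. Some precursors were near absent in intact birds. Urotensin-2 had 0 counts there in both seasons, and urotensin-2B and neuropeptide S had 0 in spring and 3 in autumn. Among the intact calls, POMC was higher on 18 counts in spring and 1 in autumn, and QRFP on 47 and 2. Neuromedin-U was lower there on 5 and 91. The difference between the pairs was not tested, since no group has a replicate. The 54 peptide receptors had 4 higher and 3 lower genes and a median of 0.09. The median contig length was 956 bases for the precursors and 2248 for the receptors. Of all genes with contigs of 201 to 1089 bases 11.4% were lower and 4.12% higher in spring. The part of contig length in the precursor counts was not tested.

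Neurophysin 1-like, the carrier part of a vasotocin or mesotocin precursor, had 230 counts in spring and 1233 in autumn (-1.88). In intact birds it had 1138 counts in spring and 489 in autumn (1.23, 1.08 to 1.40), the opposite sign. Which of the nonapeptide genes this name stands for could not be told from the files. The vasotocin receptor AVPR1A, with 88 counts in spring and 56 in autumn, was higher (1.11, 0.68 to 1.69). The oxytocin receptor (OXTR), which in birds binds mesotocin, was at 0.64 (0.05 to 1.38), but at -3.04 in its most abundant contig alone.

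Among the peptides of feeding, CARTPT, QRFP and neuromedin-B were lower and neuromedin-U was higher. CARTPT, an anorexigenic peptide made beside POMC, had 156 counts in spring and 562 in autumn (-1.30, -1.58 to -1.06). Neurotensin (NTS) had 383 counts in spring and 1113 in autumn (-1.18 to -0.84 for the log2 ratio), and NPY, which drives feeding, 93 and 274 (-1.38 to -0.68). Both ratios lie at the 2-fold threshold itself. QRFP, an RFamide peptide that also stimulates feeding, had 0 counts in spring and 67 in autumn, at least 15.4-fold lower against the limit of 3 counts. Neuromedin-B, a bombesin-like peptide, had 101 counts in spring and 316 in autumn (-1.09, -1.45 to -0.79), while its receptor was higher with 87 and 41 counts in the same order (1.51, 1.07 to 2.19). Ligand and receptor thus moved in opposite directions. Neuromedin-U (NMU), a satiety peptide, was the higher precursor beside GNRH1, with 21 counts in spring and 12 in autumn (1.05, 0.25 to 2.50), but at -1.02 in its most abundant contig alone. Urotensin-2 had 7 counts in spring and 41 in autumn (-1.60, -3.42 to -0.85).

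The feeding list as a whole, with 32 measured genes, had 2 higher and 5 lower genes, beside 2.52% and 5.42% of all genes. All of these calls held, and the list median was 0.13. AGRP, the melanocortin antagonist that promotes feeding and shares its neurons with NPY, had 155 counts in spring and 122 in autumn (0.85, 0.53 to 1.23), so that the point estimates of AGRP and NPY had opposite signs. PMCH and orexin (HCRT), peptides of the lateral hypothalamus, were at 0.90 and 0.34. CCK was at -0.95 (-1.16 to -0.76), galanin (GAL) at -0.28 and the releasing hormone GHRH at -0.58 (-0.81 to -0.36). Somatostatin (SST), which restrains growth hormone, stood at 155 CPM in spring and 173 CPM in autumn (-0.15, -0.27 to -0.04), and its receptor SSTR2 was higher (1.01, 0.70 to 1.38) at the threshold. The melanocortin receptors MC3R and MC4R stood at 0.91 and 0.43, the leptin receptor LEPR at 36 counts in spring and 52 in autumn, and the insulin receptor INSR at 0.15.

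Among genes of stress and opioid signalling, FKBP5, a co-chaperone that glucocorticoids induce, had 137 counts in spring and 457 in autumn and was lower (-1.19, -1.49 to -0.93). Corticoliberin-like, a relative of the releasing hormone of the stress axis, was lower too (89 and 300 counts in spring and autumn, -1.19, -1.58 to -0.88). CRH itself was at -0.53 (-0.83 to -0.26) and its binding protein CRHBP at 0.75 (0.49 to 1.05). The mineralocorticoid receptor NR3C2 and the kinase SGK1, which corticosteroids induce, stood at 0.10 and 0.09. The enkephalin precursor PENK stood at 319 CPM in spring and 314 CPM in autumn (0.02, -0.06 to 0.10) and the dynorphin precursor PDYN at 0.35. Of the 16 measured genes of this list 1, AVPR1A, was higher and 1, FKBP5, lower, beside 2.52% and 5.42% of all genes. The median was 0.17.

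**Figure D3:**
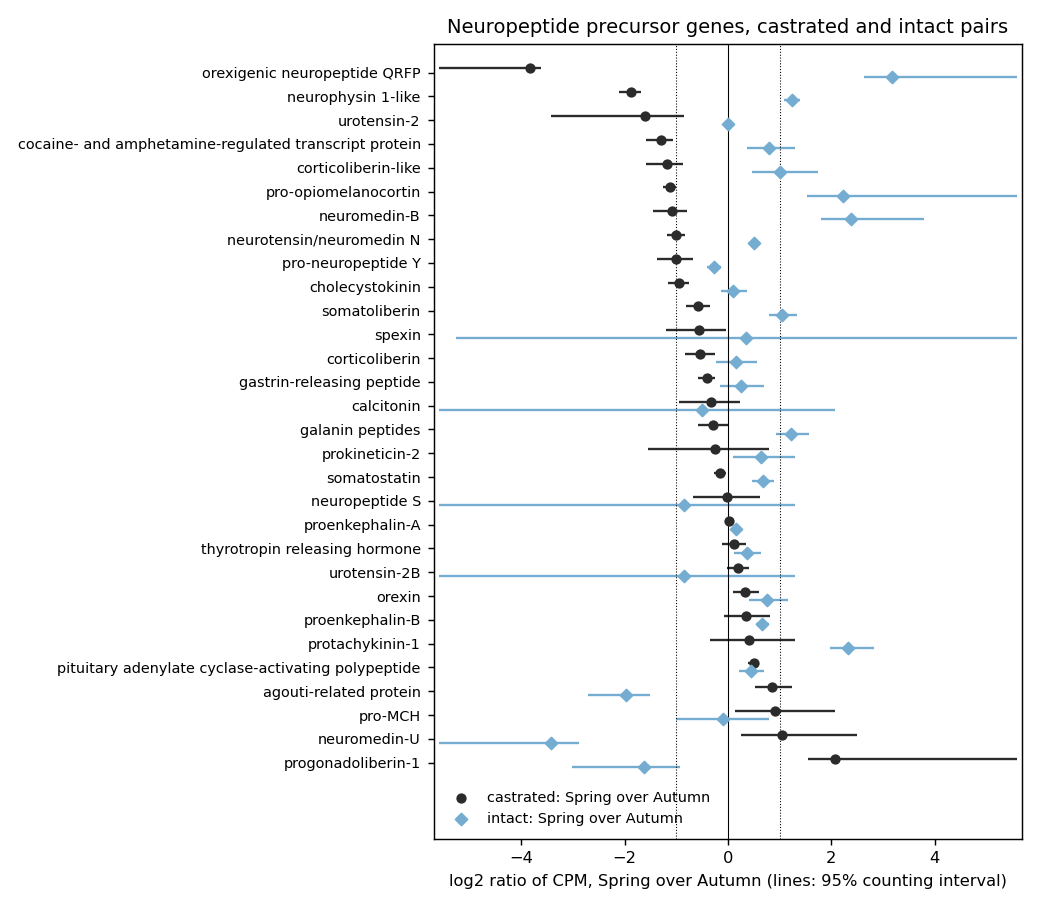
Log2 ratios of CPM, spring over autumn, of 30 neuropeptide precursor genes in castrated birds (circles) and intact birds (diamonds), with lines for the exact 95% counting interval and dotted lines at 2-fold. Intervals that run past the axis are drawn to its edge, a point with no reads in both libraries of a pair lies at 0, and the castrated ratios of QRFP, neurophysin 1-like, CARTPT, corticoliberin-like, POMC and neuromedin-B lie left of 0 while the intact ratios lie right of it.

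Protein synthesis and energy genes formed the broadest difference. Ribosomal proteins build the ribosome, and the subunits of complexes I to V carry out respiration in mitochondria. All 17 measured genes of cytoplasmic ribosomal proteins were below 0, 6 of them past 2-fold, beside 5.42% of all genes. The median was -0.93 in castrated and 0.02 in intact birds. All of these genes had their highest CPM of the 4 libraries in Autumn Castrated. RPL37A stood at 53.7 CPM in spring and 344 CPM in autumn castrated birds, and at 49.3 and 53.1 CPM in spring and autumn intact birds. RPL37A had 375 counts in spring and 3475 in autumn (-2.67, -2.84 to -2.53), and RPLP1, part of the ribosomal stalk, 16 and 179 (-2.71, -3.79 to -2.21). RPS15, RPS20, RPL15 and RPL10A were lower by log2 ratios of -1.31, -1.22, -1.16 and -1.15. The member nearest to 0 was RPL13, with 760 counts in spring and 1266 in autumn (-0.20, -0.34 to -0.07). RPL10A was at 0.40 in its most abundant contig alone. In TPM RPL13 was at 0.74, the other sign. Ratios of single ribosomal genes are thus uncertain.

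Of 34 measured genes of oxidative phosphorylation, 11 were lower and 0 higher, beside 5.42% and 2.52% of all genes. Of the 34, 29 were below 0, with a median of -0.76 in castrated and -0.01 in intact birds. All 11 lower calls held, but NDUFB10 was at 0.71 with stricter protein matches (e-value up to 1e-20, identity from 70%). NDUFB6, an accessory subunit of complex I, had 83 counts in spring and 812 in autumn (-2.71, -3.10 to -2.43), and NDUFB9 692 and 3151 (-1.65, -1.78 to -1.54). COX7C of complex IV had 410 counts in spring and 2485 in autumn (-2.06, -2.22 to -1.92), and ATP5PO of the ATP synthase 76 and 363 (-1.68). NDUFB6, NDUFB9, COX7C and ATP5PO had their highest CPM of the 4 libraries in Autumn Castrated. NDUFB6 stood at 11.9 CPM in spring and 80.4 CPM in autumn castrated birds, and at 9.59 and 11.6 CPM in spring and autumn intact birds. NDUFA5, NDUFB10, NDUFA2 and NDUFS7 of complex I (-1.44, -1.35, -1.17 and -1.04), UQCRQ and UQCRFS1 of complex III (-1.02 and -1.02) and COX5A of complex IV (-1.08) made up the rest. Among the members nearer to 0, NDUFS1, the largest subunit of complex I, stood at 701 CPM in spring and 689.9 CPM in autumn (0.02, -0.03 to 0.08), SDHA of complex II at -0.26 and the catalytic ATP synthase subunit ATP5F1B at -0.22 (-0.25 to -0.19). UQCRC2 and NDUFV2 were above 0 (0.17 and 0.18).

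The lists of glycolysis and the citric acid cycle and of sterol and fatty acid synthesis did not share this direction. Glycolysis and the citric acid cycle, with 25 measured genes, had 0 higher and 0 lower genes and a median of -0.04, with the pyruvate kinase PKM at 0.53 (0.50 to 0.56) and enolase ENO1 at -0.52 (-0.55 to -0.49). Sterol and fatty acid synthesis, with 30 measured genes, also had 0 in either direction and a median of 0.09, with the sterol enzyme SC5D at 0.89 and the desaturases FADS1 and FADS2 at 0.67 and 0.52. In the proteasome list 12 of 14 genes were below 0, with a median of -0.28, and its 1 lower gene, PSMB3, did not hold (530 and 830 counts in spring and autumn with unmatched contigs added, -0.12).

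Contig length moved with these ratios. Genes were divided into 5 equal classes by the length of their most abundant contig. In the shortest class, 201 to 1089 bases, 11.4% of genes were lower in spring, 4.12% were higher and the median was -0.10. In the longest, from 3886 bases, 2.61% were lower, 1.42% were higher and the median was 0.02. In TPM the median was -0.05 in both of these classes. The median length by list was 951 bases for ribosomal proteins and 1269 for oxidative phosphorylation. Within the shortest class, the 10 ribosomal genes had a median of -0.95 and the 14 oxidative phosphorylation genes of -0.77, against -0.10 for the other genes of that class. In the next class the medians were -1.15 for 3 ribosomal genes and -0.85 for 9 oxidative phosphorylation genes, against -0.02 for the others. Counted from the shortest, classes 3 and 4 had ribosomal medians of -0.66 and -0.51, on 2 genes each. Oxidative phosphorylation had medians of -0.65, -0.88 and -0.26 in classes 3 to 5, on 5, 3 and 3 genes. The other genes of classes 3 to 5 had medians of 0.02, 0.05 and 0.02. The part of contig length in the list medians was not tested. The libraries also differed in the length that kallisto takes off each contig, a measure of fragment length, which was 261.44 bases in spring castrated birds and 210.99 in autumn castrated birds, against 266.2 and 264.3 in the spring and autumn intact ones. The part of fragment length in the list medians was not tested either. In TPM, which corrects for that length, the medians were -0.93 for ribosomal proteins and -0.70 for oxidative phosphorylation.

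**Figure D4:**
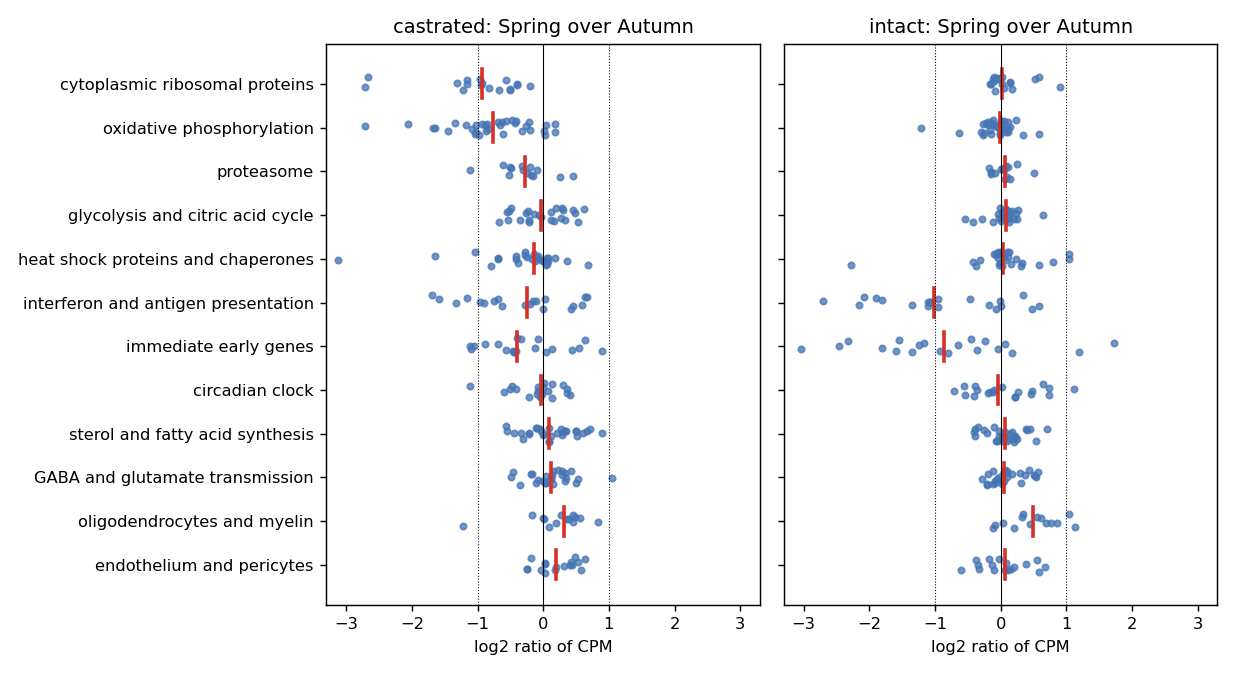
Log2 ratio of CPM, spring over autumn, of each measured member of 12 gene lists in castrated birds (left) and intact birds (right), 1 point per gene, with the list median as a red bar and dotted lines at 2-fold. Ribosomal proteins and oxidative phosphorylation lie left of 0 in castrated birds, with medians of -0.93 and -0.76, and around 0 in intact birds.

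Heat shock genes were mostly close, with 3 exceptions among 28 and a median of -0.14. HSPA2, a member of the HSP70 family, had 2807 counts in spring and 12707 in autumn (-1.65, -1.71 to -1.59). The subunits CCT8 (-1.03, -1.14 to -0.94) and TCP1 (-3.12, -5.85 to -2.54, on 4 counts in spring and 89 in autumn) of the chaperonin that folds actin and tubulin were lower, while its subunits CCT2, CCT4 and CCT7 stood at 0.07, -0.39 and 0.36. Outside the list, heat shock protein 30C-like, a small heat shock protein, had 34 counts in spring and 1085 in autumn, the farthest of the lower genes with at least 20 counts in both libraries that held (-4.33). It stood at 4.87 CPM in spring and 107 CPM in autumn castrated birds, and at 5.62 and 11.2 CPM in spring and autumn intact birds. HSP90AA1, the main inducible HSP90, was at -0.41 (-0.42 to -0.39), and HSPB1 and HSPA5 at 0.05 and -0.24.

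Genes that interferon induces were lower in part. Of 20 measured genes of interferon and antigen presentation, 4 were lower and 0 higher, beside 5.42% and 2.52% of all genes. The median was -0.24 in castrated and -1.01 in intact birds. TAP2, here antigen peptide transporter 2-like, which loads peptides on class I molecules, had 27 counts in spring and 137 in autumn (-1.69, -2.46 to -1.21), and the antiviral gene MX1 58 and 219 (-1.33, -1.83 to -0.96). IFI30 and IRF1 were the others, at -1.59 and -1.16. Other interferon-induced members lay above 0, with IFIH1 at 0.46 and EIF2AK2 at 0.59. A gene outside the list, named interferon alpha-inducible protein 27-like protein 2B, had 79 counts in spring and 811 in autumn (-2.77, -3.18 to -2.49). In contrast CD74, the invariant chain of class II antigen presentation, stood at 445 CPM in spring and 287 CPM in autumn (0.63, 0.56 to 0.71), and -1.90 in intact birds. Of 15 genes of microglia and macrophages ITGB2 and MPEG1 were higher at the threshold (1.02 and 1.03), of which MPEG1 held, and CSF1R and C1QA stood at 0.55 and -0.72. Of 20 immediate early genes 3 (NR4A3, NR4A1 and FOSL2) were lower, beside 5.42% of all genes, and the median was -0.40. The activity marker EGR1 stood at 148 CPM in spring and 134 CPM in autumn (0.14), ARC at -0.44 and ATF3 at -0.88.

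Genes of transmission were near to balance. Of 27 genes of GABA and glutamate transmission 1, the NMDA receptor subunit GRIN1, was higher, with 164 counts in spring and 112 in autumn (1.05, 0.73 to 1.44), though at 0.19 in TPM, and the list median was 0.12. The transporters that fill vesicles with GABA (SLC32A1) and glutamate (SLC17A6) stood at 0.14 and 0.12, and the GABA enzyme GAD1 at -0.07. Of 27 monoamine genes 2 were higher and 0 lower, beside 2.52% and 5.42% of all genes, with a median of 0.20. The histamine receptor HRH1 had 23 counts in spring and 6 in autumn (1.79, 1.13 to 4.06). The serotonin genes SLC6A4 and TPH2, which mark the raphe of the hindbrain, stood at 0.77 and 0.34, the dopamine enzyme TH at -0.20 and the vesicular transporter SLC18A2 at 0.20. HOXD3 (152 and 101 counts in spring and autumn, 1.08) and HOXA3 (0.69), further markers of the hindbrain, lay on the same side of 0 as these serotonin genes. The 19 genes of thalamus, midbrain and hindbrain, to which they belong, had a list median of 0.34. Their summed level was lower in spring, and within it PVALB stood at 961.57 CPM in spring and 1342.5 CPM in autumn. Their member EN2 was called lower (9 counts in spring and 59 in autumn, -1.83), though at 0.18 with unmatched contigs added. The part of hindbrain tissue in the serotonin ratios was not tested.

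Most of the widest calls on channel and synapse genes did not hold. The potassium channel subunit KCNC1, which lets neurons fire fast, had 288 counts in spring and 104 in autumn (1.95, 1.67 to 2.34), and 2057 and 2108 with unmatched contigs added (0.49). The vesicle protein SV2B had 0 counts in spring and 210 in autumn, and 955 and 1266 with those contigs added (0.12). Of the 3 channel genes called higher and the 1 called lower, and of the 2 vesicle genes called higher and the 1 called lower, 0 held. A channel gene outside the list did. KCNH6, of the potassium channels named after the ether-a-go-go gene, had 1000 counts in spring and 23 in autumn (5.69, 5.38 to 6.64), and 2329 and 1230 with unmatched contigs added (1.45). Of the 24 genes farthest apart by the bound of their interval, 12 in each direction, the plot with and without unmatched contigs shows 5 past 2-fold in both. They are FSHB, CGA, KCNH6, QRFP and heat shock protein 30C-like. The others, among them multiple PDZ domain protein (5 and 379 counts in spring and autumn, -4.97) with 2161 and 3480 counts after the addition (-0.15), came to lie between -0.31 and 0.85.

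**Figure D5:**
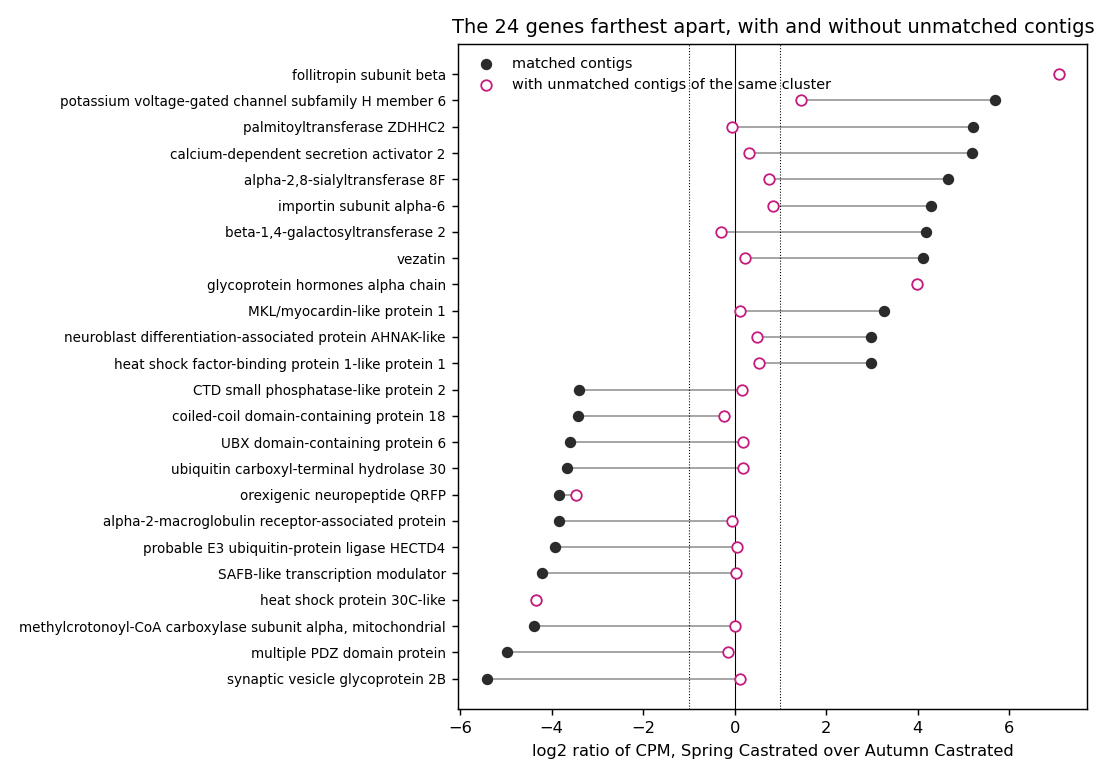
Log2 ratio of CPM, Spring Castrated over Autumn Castrated, of the 24 genes farthest apart, from matched contigs (filled) and with the unmatched contigs of the same assembly cluster added (open). FSHB, CGA and heat shock protein 30C-like stay in place, QRFP and KCNH6 stay past the dotted 2-fold lines, and the other 19 genes come to lie within them.

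Among well measured genes, with at least 20 counts in each library and the same call in TPM and in the most abundant contig, 93 were higher and 206 lower. These counts do not require a call to hold with unmatched contigs added, and several did not. AMP deaminase 2 went from 2.43 to 0.56 and AN1-type zinc finger protein 3 from 2.86 to 0.33. On the lower side SAFB-like transcription modulator went from -4.21 to 0.03 and eukaryotic initiation factor 4A-III from -2.97 to -0.48. On the lower side, H/ACA ribonucleoprotein complex subunit 3-like, part of the machinery that modifies ribosomal RNA, had 48 counts in spring and 503 in autumn (-2.77, -3.32 to -2.43). Protein C19orf12 homolog (-2.71), protein JTB (-2.45) and guanylate cyclase soluble subunit alpha-2 (-2.64), part of the receptor for nitric oxide, also held. On the higher side venom factor, a name that stands for a relative of complement C3, had 388 counts in spring and 124 in autumn (2.13, 1.88 to 2.48). Complement C1q-like protein 4, a secreted synaptic protein, had 157 counts in spring and 57 in autumn (1.90, 1.55 to 2.46).

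Among abundant genes, of 100 CPM or more, FEZ1 (fasciculation and elongation protein zeta-1), which serves axon growth, had 1809 counts in spring and 7229 in autumn (-1.47, -1.54 to -1.39). STMN1, a microtubule regulator, stood at 1338 CPM in spring and 2703 CPM in autumn (-1.01), and the neuronal ubiquitin hydrolase UCHL1 at 506 and 1073 CPM in the same order (-1.08). Of the 8 neuron markers UCHL1 was lower and held, TUBB3 was lower on matched contigs (-2.18) but not with unmatched contigs added (-0.25), NEFL was at 0.59 and SYT1 at 726 CPM in spring and 728 CPM in autumn. The higher abundant genes included dihydropyrimidine dehydrogenase, which breaks down pyrimidines (1309 and 689 counts in spring and autumn, 1.45, 1.32 to 1.59). With them were amphoterin-induced protein 1, a neurite adhesion protein (1.37), AP2-associated protein kinase 1 of endocytosis (1.22), phospholipid phosphatase 3 (1.21) and death-associated protein kinase 3 (1.20), which all held.

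Genes of RNA processing, chromatin and new neurons gave few calls. Symplekin (SYMPK), a scaffold for the ends of messenger RNA, had 61 counts in spring and 18 in autumn (2.02, 1.51 to 3.14), and SNRNP70, a protein of the U1 particle, 68 and 25 (1.78, 1.29 to 2.70). They and DROSHA, which did not hold (0.17), were the higher genes of 22 in splicing and RNA processing, whose median was 0.10. Of 34 chromatin genes TRIM28, a corepressor, was higher (307 and 151 counts in spring and autumn, 1.52, 1.27 to 1.85), and so was DNMT1, the maintenance DNA methyltransferase, on 11 and 0 counts (157 and 108 with unmatched contigs added, 1.04). The list's lower gene, the histone methyltransferase SUV39H2, had 6 counts in spring and 36 in autumn (-1.58, -3.59 to -0.79), and did not hold (-0.27). The de novo methyltransferase DNMT3B and the demethylase TET1 were at -0.76 and -0.91. Of 19 genes of neurogenesis and plasticity, SOX4, SOX11 and nestin (NES), genes of neural precursors, were higher (1.11, 1.24 and 1.14) and STMN1 and, on matched contigs alone, TUBB3 were lower. In the most abundant contig alone NES was at 0.51 and STMN1 at -0.52. DCX, a marker of young neurons, had 60 counts in spring and 79 in autumn (0.13, -0.37 to 0.64). SOX9, a gene of astrocytes and neural stem cells, was higher (1.13) among 11 genes of astrocytes, tanycytes and ependyma, whose median was -0.02. Of 14 oligodendrocyte and myelin genes ERMN, a cytoskeletal protein of mature oligodendrocytes, was lower (958 and 3240 counts in spring and autumn, -1.22), while MBP, a main myelin protein, stood at 0.39. Of 17 genes of endothelium and pericytes 0 were called.

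The season ratios of castrated and intact birds were set side by side, each pair with its own libraries. Of the genes higher in castrated birds in spring, 26 (9.77%) were also higher in intact birds, beside 2.6% of all genes, 37 (13.9%) were lower there, beside 4.39% of all genes, and 203 were neither. Of the genes lower in castrated birds in spring, 67 (11.7%) were also lower in intact birds, 37 (6.47%) higher and 468 neither. The 26 and 67 genes called alike were 9.45% and 14.4% of the genes called in the same direction in intact birds, and the 37 each called the opposite way were 7.97% of those lower and 13.5% of those higher there. Over all genes 9821 of 10560 were called neither way in intact birds. With at least 20 counts in all 4 libraries, 7 genes were higher and 27 lower in both pairs, and 9 in each direction were called the opposite way in the intact pair. All of these counts rest on matched contigs, and some of the castrated calls did not hold. Among the genes called alike, STAM-binding protein (-0.02), out at first protein homolog (-0.47) and amphiphysin (0.10) lost their call with unmatched contigs added. Among those called the opposite way, RING1 and YY1-binding protein (0.01) and MMS19 (0.34) did. The genes named below in this paragraph held in castrated birds. Sepiapterin reductase, the enzyme that completes the cofactor of monoamine synthesis, was higher in both pairs: 251 and 167 counts in spring and autumn castrated birds (1.10, 0.83 to 1.41), and 101 and 27 in spring and autumn intact birds (1.79). Protocadherin gamma-B5 (1.43 in castrated and 1.81 in intact birds), TRIM28 (453 counts in spring and 112 in autumn intact birds) and the neuromedin-B receptor (1.51 and 1.02) were of the same kind, and protocadherins of 1 cluster share sequence, so the count of that member, at 0.27 in TPM, is uncertain. Uridine phosphorylase 2, of pyrimidine salvage, was lower in both (-2.48 and -1.43). Genes lower in castrated and higher in intact birds in spring were, besides neurophysin 1-like, the transcription factor Myb (-1.55 and 1.35, but -0.46 in castrated birds in its most abundant contig alone), adhesion G-protein coupled receptor D2 (-1.41 and 1.61) and T-cell surface glycoprotein CD3 gamma chain-like (-1.17 and 1.60). Genes higher in castrated and lower in intact birds in spring were the drug transporter ABCG2 (1.67 and -1.07), immunoglobulin J chain (1.33 and -1.03) and inducible nitric oxide synthase (1.19 and -1.08). The differences between the pairs could not be tested with 1 library per group.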

How the data were processed

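RNA of 4 hypothalamus libraries, 1 per group, was read from the deposited tables. Per the submitters' processing notes, reads were trimmed with Trimmomatic and quantified with kallisto; their versions and the assembler are not given in these sources. Each library's deposited table gives kallisto estimated counts and TPM per contig, per the file headers. The authors' deposited match table gives for each contig the collared flycatcher protein, the bit score, the percent identity and the e-value.

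For each contig the match of highest bit score with an e-value of at most 1e-05 was kept, which left 50994 of 507906 contigs with counts. Estimated counts were summed by protein name and rounded, scaled to CPM with TMM factors over the 4 libraries, and kept at a mean of at least 1 CPM. Ratios are log2 of CPM with 0.5 CPM added. Matched counts ranged from 6759993 to 10918844 over the libraries, and intervals and the limit of 3 counts cover counting error only. Symbols were paired by hand with protein names, for 619 of 848 listed symbols, of which 581 were analysed.

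Genes named in the text were those past 2-fold with the bound of the interval farthest from 0, the well measured and abundant ones, the list members with the largest ratios, members of the hormone and clock lists, and genes called in both season pairs. Others are named as members of the families of neuropeptide precursors and receptors or as genes known for a role, and were chosen after their values were seen. The members and lists were chosen with earlier results of these data known. The method was tested on simulated counts, and alternatives covered scaling, filters, the added CPM, TPM, match thresholds, the most abundant contig, thinning to equal depth and unmatched contigs. Python 3.11.15 with numpy 2.4.6, pandas 2.3.3 and scipy 1.17.1 was used, and the TMM factors were checked against edgeR 4.0.16. Results of a few genes are not reported here.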

Additional observations from a re-analysis of the deposited data

How the results depend on the processing

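Of the 2-fold counts, 266 genes higher and 572 lower in spring castrated birds, the higher count was 411 with library totals and no TMM factor, 173 where genes had to average 5 CPM, 154 with 2 CPM added, 689 from the most abundant contig alone and 175 with unmatched contigs added. The lower count was 351 where genes had to average 5 CPM, 324 with at least 20 counts in each castrated library, 359 with 2 CPM added and 1057 from the most abundant contig alone. All other alternatives stayed within 1.5 times of both counts. Library totals moved the median of all genes to 0.157. The list medians ranged from -0.934 to -0.773 for ribosomal proteins and from -0.886 to -0.603 for oxidative phosphorylation over the alternatives. The alternatives were followed gene by gene for 194 named genes, which are not all the genes named in the text. Of these 194, 21 lost their call with library totals, 25 with 2 CPM added and 23 in TPM. In the most abundant contig alone 12 lost it, and with unmatched contigs added 9 did. Among the called genes of the 194 the sign turned for RPL10A (0.40), OPN4 (0.33) and neuromedin-U (-1.02) in the most abundant contig. It also turned for NDUFB10 (0.71) with stricter matches and for SV2B (0.12) and EN2 (0.18) with unmatched contigs added. Outside the 194, other calls named in the text did not hold with those contigs added. Among them SAFB-like transcription modulator turned from -4.21 to 0.03. Of the 91 named genes not called, 26 took the other sign in at least 1 alternative, among them OXTR (0.64, -3.04), ENPP2 (0.10, -0.75) and ARNTL (-0.06, 3.57) in the most abundant contig, RPL13 (-0.20, 0.74), TACR3 (0.56, -0.14), KL (0.23, -0.62) and DNMT3B (-0.76, 0.15) in TPM, and POU1F1 (0.23, -0.28) with unmatched contigs added. The cause was not tested. Leaving out a replicate was not possible with 1 library per group. No paired analysis was possible because each group has 1 library. Depth limits genes of few counts: 59 genes had 0 counts in 1 castrated library.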

Other observations

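Other groups were formed by protein name after the values had been seen and are given as a description, with no test, beside a median of 0.003 over all genes. Of 57 mitochondrial ribosomal proteins, which build the ribosome of the mitochondrion, 1 was higher and 10 lower in spring castrated birds, 50 were below 0, and the median log2 ratio was -0.41 in castrated and -0.04 in intact birds. All 23 proteins named as 40S or 60S ribosomal proteins, which include the 17 listed ones, were below 0. The 10 subunits of the machinery that imports proteins into mitochondria were also all below 0, with 2 lower and a median of -0.81, or -0.48 with unmatched contigs added.

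Families of cell contact and axon guidance lay mostly above 0, with few calls. Of 34 protocadherins, adhesion proteins that give neurons their identity, 25 were above 0, 2 were higher and 4 lower, and the median was 0.39 in castrated and 0.12 in intact birds. Of 19 semaphorins, guidance cues for axons, 17 were above 0 and 0 were called, with a median of 0.30. Of 11 laminins, proteins of the basement membrane, 9 were above 0 and 0 were called, with a median of 0.44. Ephrins and their receptors, with 14 genes, had a median of 0.35, and 25 cadherins had 0.30. The ribosomal and mitochondrial families have short contigs and the adhesion families were not compared by contig length, so the part of contig length in these medians was not tested.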
